A study of Homo sapiens with 4 samples.

Results

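The histone genes are a family of 79 rows among the 32973 genes of the deposited expression table. They were chosen by name. The 63 replication-dependent members have symbols that begin with HIST1H to HIST4H, and the 16 replacement members begin with H1F, H2AF or H3F. Of 94 rows with such names, 15 with pseudogene names were left out. The 47 HIST1 genes lie on chromosome 6, 15 HIST2 and HIST3 genes lie on chromosome 1, and HIST4H4 lies on chromosome 12. Of the 79 rows, 77 have the start and end that GENCODE 29 gives for the symbol on GRCh38. Not every row is a coding gene: HIST2H2BC and HIST2H2BD are annotated there as transcribed pseudogenes, and the replacement row H1FX-AS1 is a noncoding RNA antisense to H1FX.

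The study asked which genes lie downstream of BCUC-1, a circular RNA also listed as hsa_circ_0001361. It used T24T and UMUC3, both human bladder cancer cell lines, each made to carry either a BCUC-1 overexpression plasmid or the empty vector by stable transfection. There were thus 4 groups with 1 library each, all from total RNA of cells in the same serum-containing medium. Where 4 values are given in a row below, they are in the order T24T with vector, T24T with BCUC-1, UMUC3 with vector, UMUC3 with BCUC-1. The labels do not say whether polyadenylated RNA was selected, how many clones a transfected line holds, or whether the cultures of a line were grown at the same time. With 1 library per group, any difference between 2 libraries has no replicate check.

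Histones are the proteins around which nuclear DNA is wound. The core histones H2A, H2B, H3 and H4 form the nucleosome, and linker histone H1 binds the DNA between nucleosomes. Replication-dependent histone genes are known to be transcribed mainly in S phase, and their mRNAs usually end in a conserved stem-loop that is bound by SLBP instead of a poly(A) tail. Replacement histones such as H2A.Z and H3.3 come from genes that are expressed through the cell cycle and make ordinary polyadenylated mRNAs. Some replication-dependent genes are also known to give polyadenylated transcripts, above all in cells that leave the cycle, and a list of 7 such genes was drawn up: HIST1H1C, HIST1H2AC, HIST1H2BC, HIST1H2BD, HIST1H2BJ, HIST1H2BK and HIST2H2BE.

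The stem-loop was searched in the GENCODE 29 transcripts, since it marks the end at which a histone mRNA without a tail is cut. The pattern was GGNNCTNNTNAGNNCC on the transcript strand, with all 6 bases on either side of the 4-base loop paired. It was present in 30 of 63 replication-dependent members and in 1 of 16 replacement members, H2AFX, against 84 of 57133 genes (0.147%) in the whole annotation. The 6 sites below are from members named in the results and do not show every version. The 16-base stem-loop is in capitals, with 5 flanking bases on each side. Each lies in the exon downstream of the stop codon, between 35 and 56 bases past it, on GRCh38. In order, they are at chr6:26123467-26123492 (minus strand), chr6:26124664-26124689 (plus), chr1:149886183-149886208 (minus), chr1:149833027-149833052 (plus), chr6:26270918-26270943 (minus) and chr11:119094893-119094918 (minus).
HIST1H2BC: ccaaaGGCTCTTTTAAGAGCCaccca
HIST1H2AC: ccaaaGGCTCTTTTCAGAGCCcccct
HIST2H2BE: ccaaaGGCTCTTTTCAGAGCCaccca
HIST2H4A: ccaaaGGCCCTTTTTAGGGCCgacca
HIST1H3G: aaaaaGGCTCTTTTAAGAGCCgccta
H2AFX: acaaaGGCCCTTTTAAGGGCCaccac

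The version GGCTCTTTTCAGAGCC was carried by 17 members, all of them H2A, H2B or H3 genes, and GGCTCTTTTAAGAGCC by 4. The 8 H4 genes with a stem-loop had another stem, with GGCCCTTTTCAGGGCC in 5 of them and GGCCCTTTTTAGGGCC in 3. H2AFX, the variant phosphorylated around DNA breaks and known to give both tailed and tailless mRNA, had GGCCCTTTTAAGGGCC, a stem shared with the H4 genes. A match is a description of the letters and not evidence that the end is used in these cells.

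Promoters were read from RefSeq (GRCh38.p14) for the 69 members that matched an entry, in windows of 300 bases from 250 before to 50 after the start. The letters CCAAT were found on either strand in 47 of 56 replication-dependent promoters (83.9%) and in 11 of 13 replacement promoters, against 39.7% of 27305 genes. Among the replication-dependent types every H1 (4), H2A (15), H2B (16) and H3 (11) promoter held CCAAT, and 1 of 10 H4 promoters did. The octamer ATTTGCAT, known in H2B promoters, was in 12 of 16 H2B and 10 of 15 H2A promoters and in none of the 10 H4 promoters, against 2.19% of all genes. AAACACA, the known H1 element, was in 4 of 4 replication-dependent H1 promoters against 6.94% of all genes. TATAAA was in 66.1% of replication-dependent and 30.8% of replacement promoters, against 3819 of 27305 genes. By level, CCAAT was in 18 of 21 replication-dependent promoters of genes that reached 1 RPKM in a library and in 29 of 35 of genes that never did.

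The 250 bases before the start are shown for HIST1H1C (chr6:26056471-26056720, minus strand) and HIST1H2BK (chr6:27146856-27147105, minus strand), the highest replication-dependent genes here. Capitals mark the letters of the CCAAT, octamer, H1 and TATA elements given above, or their reverse complements. In the HIST1H2BK sequence a TATAAA overlaps its own reverse complement TTTATA, and these are 1 run of capitals.
HIST1H1C: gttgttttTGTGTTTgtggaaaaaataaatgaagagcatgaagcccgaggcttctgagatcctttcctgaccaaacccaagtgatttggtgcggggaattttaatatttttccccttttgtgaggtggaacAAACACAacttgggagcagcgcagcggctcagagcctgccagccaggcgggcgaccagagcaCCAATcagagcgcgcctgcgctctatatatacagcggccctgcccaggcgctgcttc
HIST1H2BK: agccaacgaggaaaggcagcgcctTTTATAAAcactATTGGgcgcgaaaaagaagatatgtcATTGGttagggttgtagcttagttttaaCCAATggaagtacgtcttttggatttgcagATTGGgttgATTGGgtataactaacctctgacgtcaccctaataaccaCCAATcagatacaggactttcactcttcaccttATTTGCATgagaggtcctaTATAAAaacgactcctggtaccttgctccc

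HIST1H1C had CCAAT 57 bases before the start and AAACACA 119 bases before it. HIST1H2BK had CCAAT in either direction at 6 places, the octamer 49 bases before the start and TATAAA 30 bases before it.

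The unit of the table is RPKM, reads per 1000 bases of gene length and per 1000000 assigned reads, and the whole reads behind each value could be recovered from it. The libraries held 22730112 to 26497894 assigned reads. The markers found for leukocytes (2), endothelium (2) and red cells (1) each summed to at most 0.140 RPKM in a library. Of the epithelial markers KRT18 stood at 81.5 and 88.2 RPKM in T24T and 39.9 and 42.1 RPKM in UMUC3, while the urothelial markers UPK3A and KRT20 and the basal keratin KRT5 had at most 3 reads in a library. UPK1B had 48 and 55 reads in T24T and 0 in UMUC3, UPK2 had 9 to 25 reads, and the luminal factors FOXA1 and PPARG had 56 to 110 and 152 to 201 reads. The basal marker CD44 stood at 60.6 to 72.0 RPKM. Of the mesenchymal markers VIM (82.9, 87.0, 234 and 267 RPKM) and ZEB1 (4.18, 4.62, 22.8 and 21.3 RPKM) were higher in both UMUC3 libraries, while CDH2 (6.64, 6.64, 5.50 and 5.31 RPKM) and FN1 (1.77, 1.58, 0.822 and 0.999 RPKM) were higher in both T24T libraries. In bulk RNA, fewer cells in S phase and less histone RNA per cell cannot be told apart.

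Replacement genes held most of the histone signal in each library. Their levels summed to 493, 495, 374 and 406 RPKM. The 63 replication-dependent genes summed to 101, 96.7, 55.0 and 62.7 RPKM, which was 17.0%, 16.3%, 12.8% and 13.4% of the histone total. In each library 11 of 16 replacement genes reached 1 RPKM, while 19, 20, 11 and 14 of 63 replication-dependent genes did. The share depended on the division by gene length, since the exonic length given for replacement genes is greater (median 2142 bases against 564). Without the division the replication-dependent genes held 3.89% of histone reads on average, against 14.9% of RPKM. Among members that overlap no other exon the RPKM share was 32.5%. That set lacks the replacement genes H2AFZ, H3F3B, H3F3A, H1FX, H2AFY and H2AFY2, the last for an overlap of 11 bases, so it is not a corrected share.

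The remaining 45 members, 40 of them replication-dependent, never reached 1 RPKM and had a median of 10 reads over the 4 libraries together. Among them were H1FNT, a testis H1 gene, and H2AFB1, H2AFB2 and H2AFB3, short H2A variants of testis, which had 0 to 3 reads per library. H3F3C, a retrocopy-derived H3 gene, had 5 to 12 reads. Where a library had 0 reads, up to 3 reads could have been missed by counting error.

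**Figure D1:**
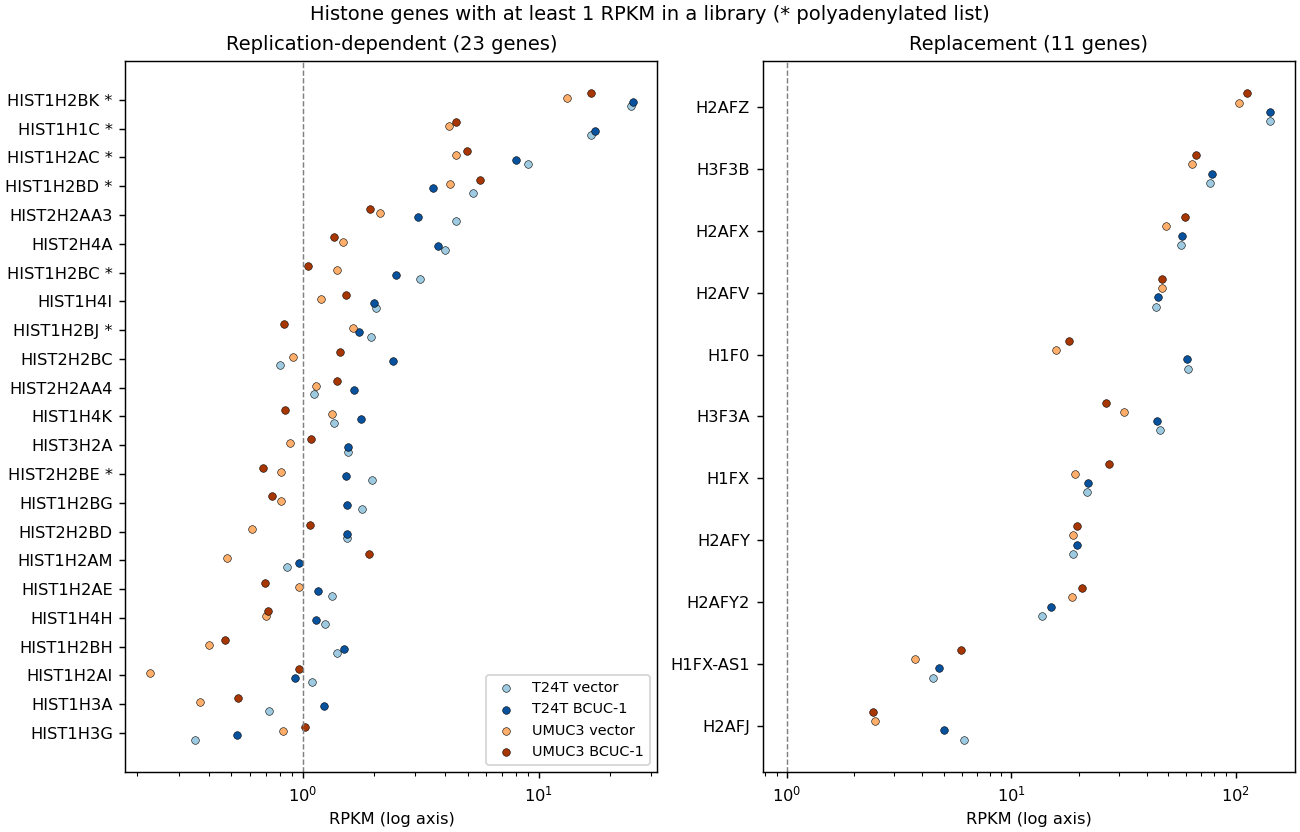
Level of each histone gene with at least 1 RPKM in a library, in RPKM on log axes, with 1 point per library (blue T24T, orange UMUC3; pale vector, dark BCUC-1), 23 replication-dependent genes on the left and 11 replacement genes on the right. Stars mark the polyadenylated list and the dashed line marks 1 RPKM; HIST1H2BK and HIST1H1C lead on the left, and H2AFZ leads on the right at 104 to 142 RPKM.

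H2AFZ, which encodes the variant H2A.Z found at promoters, was the highest member. It stood at 142, 142, 104 and 113 RPKM. Both T24T libraries lay above both UMUC3 libraries. Its neighbour in rank was H3F3B, one of a pair of genes that encode the same H3.3 protein, at 76.8, 78.1, 63.8 and 66.2 RPKM. H3F3A, the other H3.3 gene, was lower at 46.0, 44.7, 31.8 and 26.3 RPKM. For H3F3A the lines did not overlap, and reads of H3F3A and its near copy H3F3AP4 (64.6, 63.6, 34.6 and 25.5 RPKM over 411 bases) could have been split between them.

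H2AFX lay between 48.6 and 59.1 RPKM, and H2AFV, a close relative of H2AFZ, between 44.1 and 47.0 RPKM. For H2AFX the lines overlapped, and the UMUC3 BCUC-1 library was the highest of the 4. H2AFY, which encodes macroH2A1, a variant with a large extra domain, was nearly flat at 18.9, 19.7, 18.8 and 19.7 RPKM. C5orf66 overlaps H2AFY on the opposite strand by 4968 bases and stood at 19.8 to 22.1 RPKM, so without strand in the counting the 2 could not be told apart there. H2AFY2, the macroH2A2 gene, stood at 13.7, 14.9, 18.6 and 20.6 RPKM and was higher in both UMUC3 libraries. H2AFJ, an H2A gene linked to senescence, was low at 6.17, 5.01, 2.47 and 2.43 RPKM.

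Of the 3 linker histone genes of the replacement class H1F0 and H1FX were expressed, and H1FNT had 1 read in all. H1F0, which encodes H1.0 and is known to accumulate in differentiated or resting cells, stood at 61.5 and 60.4 RPKM in T24T and at 15.8 and 18.1 RPKM in UMUC3. H1FX, the H1.10 gene, stood at 21.8, 22.0, 19.2 and 27.2 RPKM. For H1F0 the lines were far apart, while for H1FX the T24T libraries lay between the UMUC3 libraries. The antisense row H1FX-AS1 overlaps H1FX by 345 bases and stood at 4.49, 4.75, 3.71 and 5.96 RPKM, with the same order of libraries as H1FX.

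Among replication-dependent genes 2 members of the polyadenylated list led. HIST1H2BK, an H2B gene, stood at 24.7, 25.1, 13.2 and 16.6 RPKM, from 223, 226, 133 and 144 reads. HIST1H1C, which encodes linker histone H1.2, stood at 16.7, 17.3, 4.17 and 4.45 RPKM, from 254, 262, 71 and 65 reads. In both genes the T24T libraries were higher than the UMUC3 libraries. HIST1H2AC, an H2A gene, followed at 8.99, 7.98, 4.46 and 4.98 RPKM, and HIST1H2BD at 5.28, 3.55, 4.20 and 5.66 RPKM. For HIST1H2BD the lines overlapped, and T24T BCUC-1 was the lowest library.

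The other 3 members of the list were lower. HIST1H2BC stood at 3.14, 2.49, 1.40 and 1.05 RPKM, HIST1H2BJ at 1.96, 1.74, 1.63 and 0.834 RPKM and HIST2H2BE at 1.96, 1.53, 0.808 and 0.682 RPKM. Together the 7 genes held 62.4%, 61.8%, 54.2% and 54.7% of the summed replication-dependent RPKM. The other 56 genes had medians of 0.430, 0.348, 0.264 and 0.330 RPKM, against 5.28, 3.55, 4.17 and 4.45 RPKM for the list. Whether the libraries selected tailed RNA was not tested. Of the listed RNAs known to lack a tail RNU7-1 stood highest at 64.9 to 174 RPKM, from 93 to 260 reads. RN7SK stood at 4.10 to 6.16 RPKM, and RN7SL1, RN7SL2 and RPPH1 at 2.76 to 8.95 RPKM. RMRP, TERC, RNU4ATAC, RNU6ATAC, RNU12, SCARNA2 and SNORD3A had 0 to 9 reads per library.

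Outside the list the highest was HIST2H2AA3, an H2A gene with a near-identical copy in HIST2H2AA4, at 4.46, 3.09, 2.13 and 1.92 RPKM. HIST2H4A, an H4 gene, stood at 4.01, 3.75, 1.49 and 1.36 RPKM, again higher in T24T. HIST2H4A and HIST2H4B encode the same protein and are near-identical, so the division of reads between them is uncertain. HIST1H4I lay between 1.20 and 2.06 RPKM. The other 7 of the 10 highest outside the list (HIST2H2BC, HIST2H2AA4, HIST1H4K, HIST3H2A, HIST1H2BG, HIST2H2BD and HIST1H2AM) lay between 0.480 and 2.41 RPKM. HIST1H2AM shares 346 bases with HIST1H3J on the same strand, and their reads cannot be told apart there.

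Gene models set part of the RPKM, because the length in the denominator is that of the annotation. Of the 63 replication-dependent models 26 were of coding length only and held no stem-loop. In 8 every transcript with the loop ended within 100 bases of it (6 to 86 bases past). In 22 the farthest such transcript ran on by 116 to 1917 bases. The 7 others held no match, among them the pseudogenes HIST2H2BC and HIST2H2BD. Transcripts without the loop were left out of this grouping, and HIST1H2BD, among the 8, also has such a transcript. In the same order, the median levels of the groups over the 4 libraries were 0.215, 0.919, 0.554 and 0.855 RPKM. Both extremes of level, from HIST1H2BK at 19.9 RPKM to the lowest gene at 0.0248 RPKM, were coding-length models. The polyadenylated list fell into all 4 groups, with 2, 1, 3 and 1 genes. Of the 22 models that ran on past the loop 10 reached 1 RPKM in a library, and of the 26 of coding length 5 did.

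**Figure D2:**
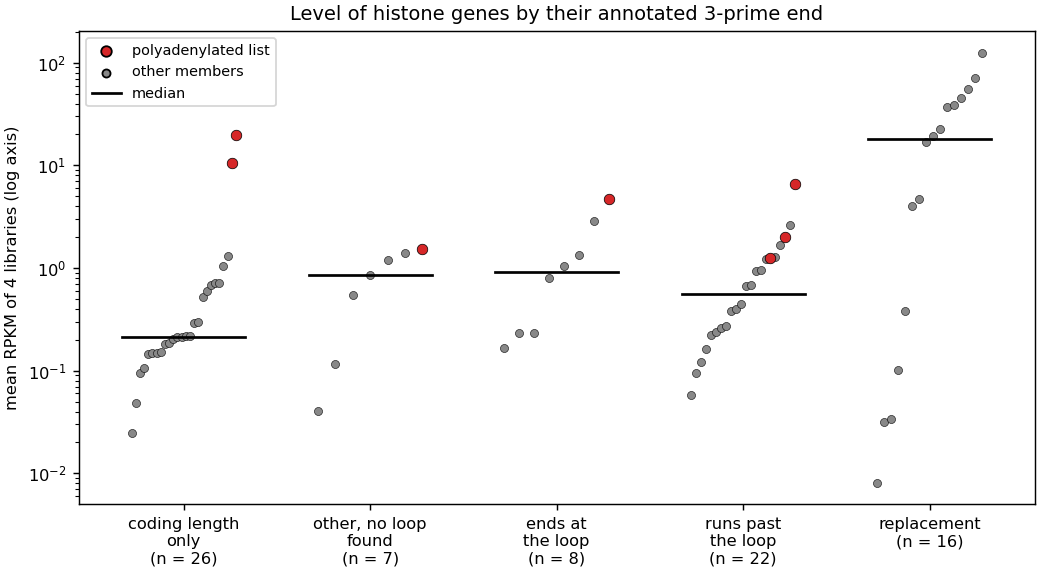
Mean RPKM of the 4 libraries (log axis) for each member, grouped by the annotated 3-prime end of replication-dependent genes and with the 16 replacement genes on the right; red points are the polyadenylated list and horizontal bars are medians. The medians of the replication-dependent groups lie between 0.215 and 0.919 RPKM, and the replacement median lies at 18.1 RPKM.

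Histone types took unequal parts of the class. H2B genes held 44.3% to 48.4% of replication-dependent RPKM and H2A genes 21.4% to 26.6%, while H4 genes held 9.28% to 12.1% and H3 genes 3.98% to 8.56%. The 4 H1 genes held 16.9% and 18.3% in T24T and 8.28% and 7.21% in UMUC3, nearly all of it HIST1H1C. No H3 gene averaged 1 RPKM over the libraries, and the highest single value was 1.24 RPKM for HIST1H3A in T24T BCUC-1. In the replacement class H3 genes held 22.9% to 25.7% of the RPKM.

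The lines differed in the total of the replication-dependent class. The class had 89.4, 83.7, 49.9 and 53.3 reads per 1000000 assigned reads. T24T was 1.79 times as high as UMUC3 between the vector libraries (exact 95% counting interval 1.67 to 1.92) and 1.57 times between the BCUC-1 libraries (1.46 to 1.69). For the replacement class the same ratios were 1.22 (1.20 to 1.24) and 1.17 (1.16 to 1.19). Without H1F0 they were 1.15 and 1.11, and without HIST1H1C the replication-dependent ratios were 1.67 and 1.44. The intervals cover counting error only, and these sums include every member without a floor.

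H1 genes were 3.70 and 3.93 times as high in T24T (vector and BCUC-1 libraries), and this rested on HIST1H1C. The other 3 H1 genes together had 4, 7, 7 and 1 reads, with ratios of 0.639 (0.137 to 2.52) and 6.75 (0.867 to 304). H4 genes were 1.94 and 2.04 times as high, and HIST2H4A held 178, 166, 74 and 58 of their 387, 354, 223 and 167 reads. H2A genes were 1.70 and 1.36 times, and H2B genes 1.73 and 1.47 times as high. H3 genes stood apart, at 0.916 (0.703 to 1.19) and 0.782 (0.604 to 1.01), so that no difference in H3 was detectable at this depth. HIST1H3G had 20, 30, 53 and 56 reads, more in UMUC3. Without HIST1H3G, named after its values were seen, the H3 ratios were 1.25 (0.909 to 1.71) and 0.964 (0.701 to 1.33).

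**Figure D3:**
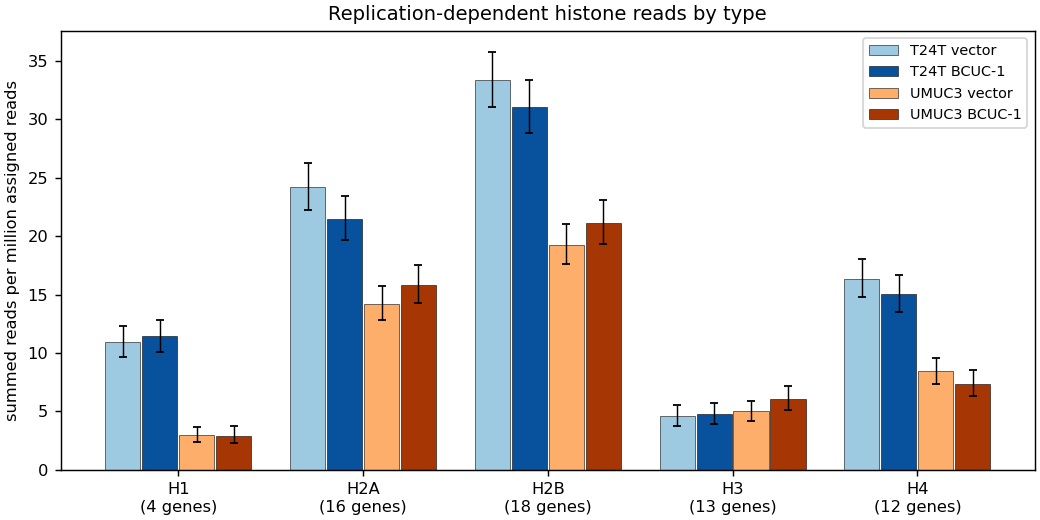
Summed reads per 1000000 assigned reads of replication-dependent genes by histone type in each library, with exact 95% Poisson counting intervals as error bars. T24T bars are above UMUC3 bars for H1, H2A, H2B and H4, and the H3 bars lie between 4.56 and 6.07 reads per 1000000 in the 4 libraries.

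Gene by gene the 2 T24T libraries were compared with the 2 UMUC3 libraries in limma on log2(RPKM + 1), with line and plasmid as terms, over the 15415 genes with at least 1 RPKM in 2 libraries. Of the 79 members 30 entered the test, 19 replication-dependent and 11 replacement. At an adjusted p of 0.05 (Benjamini-Hochberg over all genes) 20 were higher in T24T, 1 was higher in UMUC3 and 9 did not pass. The lines differ widely, and of all genes tested 70.4% were called, 40.8% higher in T24T and 29.6% higher in UMUC3. The values of the lines did not overlap for 21 members higher in T24T and 2 higher in UMUC3, where 49.2% and 36.6% of all genes showed this. The call for direction moved with scaling. With the libraries set to equal medians the shares were 34.2% and 36.0%, and the median difference of all genes went from 0.10 to -0.02. There 17 members were called higher in T24T and 2 in UMUC3. The count toward T24T also moved with the floor. With no floor 14 of 79 members were higher in T24T, where 17.4% of all genes were. In limma-voom on the recovered reads 18 of 52 members were, where 39.9% of all genes were.

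Of the replication-dependent members tested 15 of 19 were called higher in T24T and none higher in UMUC3. Their median difference was 0.48 on the log2 scale, against 0.10 for all genes. Among members below the floor, limma-voom on the recovered reads called HIST1H3G higher in UMUC3 (-1.07, limma-voom adjusted p = 0.00156). It called HIST4H4, HIST2H2BF and HIST2H3C, also below the floor, higher in T24T. The 5 replacement genes called higher were 5 of 11, near the background share, and the median of that class was 0.09. Of the tested replication-dependent genes 5 (HIST1H2AE, HIST1H2BG, HIST1H2BH, HIST1H4H and HIST2H2BE) passed the floor through T24T alone. Genes with at least 1 RPKM in all 4 libraries were therefore also counted. Of these, 7 of 9 replication-dependent and 5 of 11 replacement genes were higher in T24T, where 39.1% of all such genes were. Members are not independent of each other, and these counts are a description. All 7 of the polyadenylated list were tested and 6 were higher in T24T, with HIST1H2BD the exception (-0.14, SE 0.19, adjusted p = 0.530 in limma).

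On the log2(RPKM + 1) scale H1F0 had the largest difference of the members tested, 1.79 (SE 0.08, limma adjusted p = 5.05e-06), from 60.9 RPKM on average in T24T to 17.0 RPKM in UMUC3. HIST1H1C was close behind at 1.76 (SE 0.08, limma adjusted p = 6.41e-06). In limma-voom on the recovered reads, which adds no 1 to the RPKM, HIST1H1C (1.97) lay above H1F0 (1.85). HIST4H4, below the floor of the main test, stood at 2.08 there. Its libraries had 26, 24, 14 and 1 reads, so this size leans on the 1 read of UMUC3 with BCUC-1. H1F0 and HIST1H1C are linker histones of different classes. HIST2H4A was higher in T24T by 1.01 (SE 0.10, limma adjusted p = 0.000141) and H2AFJ by 0.93 (SE 0.11, limma adjusted p = 0.000287). The H2B genes HIST1H2BC (0.77), HIST1H2BH (0.77), HIST1H2BK (0.71), HIST2H2BE (0.65) and HIST1H2BG (0.58) and the H2A genes HIST1H2AC (0.73) and HIST2H2AA3 (0.64) formed the middle group.

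Smaller differences toward T24T were called for HIST2H2BD (0.48), HIST1H2BJ (0.37), HIST3H2A (0.37), HIST1H4H (0.36), HIST1H4I (0.36) and HIST1H2AE (0.30). Of the replacement genes H3F3A (0.63), H2AFZ (0.40) and H3F3B (0.25) were also higher in T24T. H2AFY2 alone was higher in UMUC3, at -0.43 (SE 0.07, limma adjusted p = 0.00165). H2AFV, H2AFX, H2AFY, H1FX and H1FX-AS1 did not pass, with differences from -0.08 to 0.09. With equal medians H2AFV, at -0.22 (limma adjusted p = 0.0352), was the second gene called higher in UMUC3, and H2AFX went from 0.09 to -0.05 without being called.

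Of the 21 calls these were kept in every alternative that could be fitted: H1F0, H2AFJ, H2AFZ, H3F3A, HIST1H1C, HIST1H2AC, HIST1H2BC, HIST1H2BK and HIST2H4A. HIST1H2BG, HIST1H2BH and HIST2H2BE were also kept where fitted, but entered the test through T24T alone. The floors of 5 RPKM and of 1 RPKM in all 4 libraries left them out, and the first also left out HIST1H2BC and HIST2H4A. Without the T24T vector library H2AFY2 (limma adjusted p = 0.0601), H3F3B (0.0700), HIST1H2AE (0.163), HIST1H2BJ (0.351), HIST1H4I (0.0990) and HIST2H2BD (0.104) were no longer called. The same genes apart from H2AFY2 lost the call without the T24T BCUC-1 library, with limma adjusted p from 0.0815 (HIST1H2AE) to 0.233 (HIST1H2BJ). HIST2H2AA3 lost it without either UMUC3 library (0.0865 without vector and 0.115 without BCUC-1), and HIST1H2AE (0.114) and HIST1H2BJ (0.306) lost it without UMUC3 BCUC-1. HIST3H2A and HIST1H4H lost the call with no floor and under quantile normalization, and HIST3H2A also in limma-voom. H1FX was called in opposite directions without UMUC3 vector (-0.30, adjusted p = 0.0106) and without UMUC3 BCUC-1 (0.18, adjusted p = 0.0292). Also without UMUC3 vector H1FX-AS1 was called at -0.31 (0.0410), and without UMUC3 BCUC-1 H2AFX was called at 0.23 (0.0143).

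**Figure D4:**
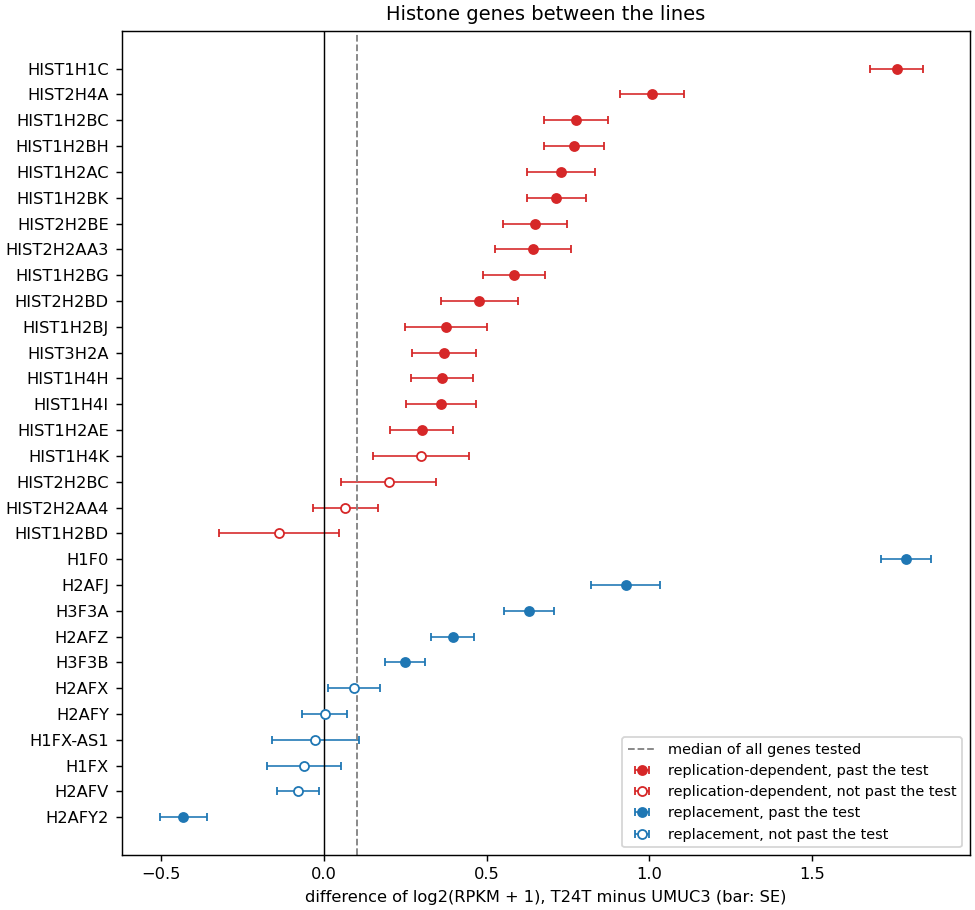
Difference of log2(RPKM + 1), T24T minus UMUC3, for the 30 histone genes tested, with standard errors from limma; filled points passed an adjusted p of 0.05, open points did not, and the dashed line is the median of all genes tested (0.10). HIST1H1C and H1F0 lie near 1.8, and H2AFY2 is the only filled point on the left of 0, at -0.43.

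BCUC-1 was not followed by a detectable change in the histone genes over both lines. None of 30 members passed in limma, and the smallest Benjamini-Hochberg adjusted p was 0.501, for HIST2H2BC. None of all 15415 genes passed either (percent called 0), while 652 genes (4.23%) and 4 members were below an unadjusted p of 0.05. limma-voom on the recovered reads called 13 of 20301 genes and 0 members. With 1 residual degree of freedom the test had little power of its own, and the size of the differences is therefore given. The median difference was 0.05 on the log2 scale for the 30 members and 0.00 for all genes.

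Within each line no member reached a 2-fold difference on the RPKM + 1 scale. In T24T 0.288% of all genes were at least 2-fold higher with BCUC-1 and 0.314% lower, and in UMUC3 0.383% and 0.369%. The nearest were HIST1H2AM in UMUC3 (0.97 on the log2 scale, from 5 and 17 reads) and HIST2H2BC in T24T (0.92, from 11 and 33 reads). Each rests on few reads, with ratios of reads per 1000000 of 3.96 (exact 95% counting interval 1.40 to 13.7) and 3.01 (1.48 to 6.61). With a pseudocount of 0.1 in place of 1 both passed 2-fold, and on recovered reads 2 members passed in each line. In reads per 1000000 the replication-dependent class as a whole was 0.937 times as high with BCUC-1 in T24T (exact 95% counting interval 0.881 to 0.997) and 1.07 times in UMUC3 (0.989 to 1.16). The class had no shared direction in the lines.

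For single genes with 100 or more reads in a pair of libraries, ratios of reads per 1000000 with exact 95% counting intervals were also formed, a rule chosen after the data were seen. In T24T 22 members had enough reads. The interval lay above 1 for H2AFY (1.05, 1.01 to 1.08) and below 1 for H2AFJ (0.813, 0.711 to 0.930) and HIST1H2BD (0.672, 0.493 to 0.913). That was 1 higher and 2 lower of 22, where 5.67% and 10.7% of all genes with as many reads were. These intervals hold no variation between cultures.

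In UMUC3 18 members had enough reads, and 9 were above 1 and 1 below, where 21.8% and 15.4% of all genes were. The highest ratios were at the H1FX locus: H1FX-AS1 went from 336 to 463 reads (ratio 1.61, interval 1.39 to 1.85) and H1FX from 767 to 931 (1.42, 1.28 to 1.56). HIST1H2BD followed at 1.35 (1.02 to 1.79), from 97 and 112 reads. H2AFX stood at 1.22 (1.15 to 1.29), H1F0 at 1.15 (1.05 to 1.26), H2AFY2 at 1.11 (1.01 to 1.21), H2AFZ at 1.09 (1.05 to 1.13), H2AFY at 1.05 (1.02 to 1.08) and H3F3B at 1.04 (1.01 to 1.07). H3F3A was lower, at 0.827 (0.779 to 0.877), from 2655 and 1883 reads, and its near copy H3F3AP4 went from 377 to 238 reads.

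The UMUC3 pair differed with base composition across all genes. Over 20 bins of GC content of the longest GENCODE 29 transcript, the median log2 difference ran from -0.16 in the lowest bin to 0.18 in the highest, while in T24T the same bins stood at -0.03 and -0.03. Histone transcripts are GC-rich: the median was 57.5% for replication-dependent and 53.2% for replacement members, against 47.8% for genes at 1 RPKM in UMUC3. After the GC trend was removed, the UMUC3 log2 difference of H1FX went from 0.48 to 0.30, that of H1FX-AS1 from 0.56 to 0.45, that of H2AFX from 0.28 to 0.09 and that of H3F3B from 0.05 to -0.00. For H3F3A it went from -0.27 to -0.19. The medians of the replication-dependent and replacement members in UMUC3 went from 0.07 to 0.02 and from 0.12 to 0.07.

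**Figure D5:**
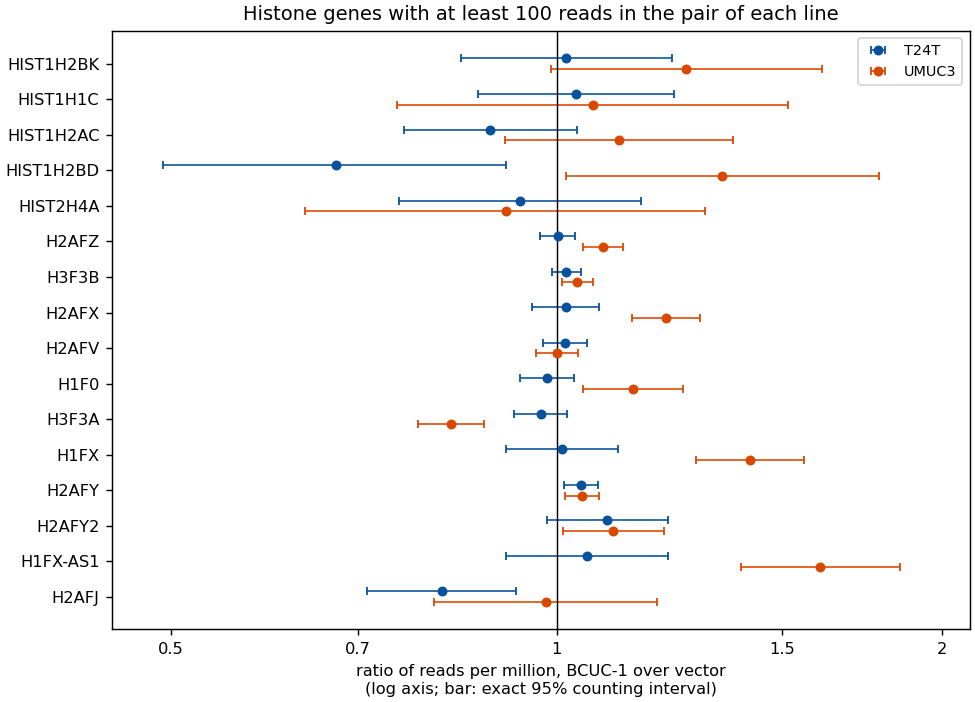
Ratio of reads per 1000000, BCUC-1 over vector, in T24T (blue) and UMUC3 (orange) for the 16 histone genes that reached 100 reads in both pairs, on a log axis with exact 95% counting intervals. In T24T most intervals include 1, and in UMUC3 H1FX-AS1 (1.61) and H1FX (1.42) lie farthest to the right and H3F3A (0.827) farthest to the left.

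Genes that make, process or place histones were described beside them, from lists that like the members were drawn up with earlier results of these data known. Their counts are to be read against the 40.8% of all genes tested that were higher in T24T and the 29.6% higher in UMUC3. Of the 23 genes of histone transcription and 3-prime end processing tested, 9 were higher in T24T, near that background, and 2 in UMUC3, and 0 were called for BCUC-1. SLBP, which binds the stem-loop, stood at 38.5, 41.2, 20.7 and 20.4 RPKM, a log2 difference between the lines of 0.92 (SE 0.07, limma adjusted p = 4.75e-05). CSTF2 (0.94), FIP1L1 (0.79) and WDR33 (1.01), parts of the cleavage and polyadenylation machinery, were also higher in T24T. CDKN1A, the inhibitor of CDK2 that acts at the start of S phase, was higher in UMUC3 (-0.42). NPAT, the coactivator of replication-dependent histone genes, did not pass (0.14). RNU7-1, the gene of the U7 RNA that guides the cut after the stem-loop, stood at 174, 170, 81.5 and 64.9 RPKM and was higher in T24T (1.23).

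Of the 10 tested genes of histone mRNA decay 3 were higher in T24T, with EXOSC10 (0.56), a nuclear exosome nuclease, the highest, and 4 in UMUC3, with UPF2 (-0.59) and MTPAP (-0.52) the lowest. Among 24 histone chaperones 13 were higher in T24T and 7, near the background, in UMUC3. ATRX, which places H3.3 at heterochromatin, stood at 13.5, 12.8, 4.31 and 4.39 RPKM (1.40). ANP32E, which removes H2A.Z (1.06), and HJURP, the chaperone of the centromeric H3 (1.06), were also higher in T24T, and ASF1A, which carries H3 with H4, was lower there (-1.23).

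Of 25 S phase genes 13 were higher in T24T and 6 in UMUC3, against the same background shares. PCNA, the sliding clamp of DNA polymerase, stood at 145 and 152 RPKM in T24T and at 79.5 RPKM in the UMUC3 library with BCUC-1 (0.88), and CDC6, a licensing factor, also differed toward T24T (0.58). POLA1, the catalytic subunit of the priming polymerase, was higher in UMUC3 (-1.01), as were MCM2 (-0.49), MCM7 (-0.45) and FEN1 (-0.45). Of the 12 RNAs without a tail 5 could be tested, and 3 of them, RN7SL1 (-0.66), RN7SK (-0.42) and RN7SL2 (-0.33), were higher in UMUC3. The part of cell cycle state or tail selection in the line differences of the histone genes was not tested.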

How the data were processed

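Total RNA of the cells was isolated with a column kit and made into standard Illumina libraries, per the labels. The authors deposited 1 table of RPKM values, scaled per 1000 bases of gene length and per 1000000 assigned reads, and per the file headers it also gives each gene's coordinates and exonic length. The submitters' processing notes name Bowtie 0.12.2. Its role, the build, the annotation, strand and the treatment of reads with several matches were not given in the sources used here. Columns were assigned to groups by sample title.

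In each library, RPKM times length fell on whole steps for 100% of genes (tolerance 0.001 reads), which gave reads and depths of 23679229, 23588847, 26497894 and 22730112 (T24T then UMUC3, vector before BCUC-1). The main test was limma 3.58.1 (R 4.3.3) on log2(RPKM + 1) with its trend option, terms for line and plasmid, two-sided, genes with at least 1 RPKM in 2 libraries, Benjamini-Hochberg adjustment over all genes tested. It had 1 residual degree of freedom and 5.55 prior degrees of freedom, and was tested on simulated data. The residual degree of freedom is the disagreement of the plasmid difference between the lines, moderated with the spread of other genes. The p-values set a difference against that, not against variation between cultures of a line. Nothing says that cultures of a line are independent. A fold on this scale understates changes of low genes. Within a line the rule was a difference of 1 on that scale, with no test, and intervals are exact (Clopper-Pearson for ratios, Poisson for sums), 95%, counting error only. Alternatives were another pseudocount (0.1), no floor or 5 RPKM, equal medians, quantile normalization, limma-voom on recovered reads, GC correction, and each library left out.

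Members, lists and tests were chosen with earlier results of these data known. Named are replacement and polyadenylated-list members at 1 RPKM, the 10 highest others, all members called between lines, the 5 largest each way for BCUC-1, and up to 4 genes of each list by line difference and 2 by BCUC-1 difference; other list genes and members were named after their values were seen. The genes with the most similar profile outside the family are not reported here. Stem-loops came from GENCODE 29 and promoters from RefSeq.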

Additional observations from a re-analysis of the deposited data

Results flagged for a closer look

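HIST1H2BD, an H2B gene of the polyadenylated list, had ratios of BCUC-1 to vector on opposite sides of 1 in the lines. In T24T its count went from 109 reads with vector to 73 with BCUC-1, a ratio of 0.672 in reads per 1000000 (exact 95% counting interval 0.493 to 0.913), and in UMUC3 from 97 to 112 reads, a ratio of 1.35 (1.02 to 1.79). The difference between the lines was not tested, and each ratio compares 1 library with 1 library.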

How the results depend on the processing

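With 1 library per group, differences between cultures of a group cannot be told apart from effects of line or plasmid, and only 30 of 79 members entered the test. Counts of members are followed by the share of all genes in brackets. Higher in T24T were 20 of 30 (40.8%) in the main fit and 8 of 14 (42.7%) with a floor of 5 RPKM. With 1 RPKM in all 4 libraries, added after seeing the data, 12 of 20 were (39.1%). In limma-voom 18 of 52 were (39.9%), and with no floor 14 of 79 (17.4%). The count higher in UMUC3, 1 in the main fit (29.6%), was 3 without a floor (12.6%). It was 2 in limma-voom (28.6%) and 2 with equal medians (36.0%). The counts also moved with a library left out, where a lone library was assumed to vary like the other line. H1FX (-0.06) was called at 0.18 without UMUC3 BCUC-1 and at -0.30 without UMUC3 vector. Of the single-gene line calls 7 were lost with no floor, 5 in limma-voom, 5 under quantile normalization and 3 with equal medians. HIST1H2BJ alone lost its call without the plasmid term, and H2AFV gained one with equal medians. With a pseudocount of 0.1 the 30 members tested were called or not called as before.

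For BCUC-1 no fit called a member, with smallest adjusted p per fit from 0.371 to 1.00, while over all genes limma called 0 to 60 genes (60 with the floor of 5 RPKM, 4 with equal medians, 1 with a pseudocount of 0.1). The 2-fold count (0 in each line) was 1 in T24T (HIST2H2BC) and 1 in UMUC3 (HIST1H2AM) with a pseudocount of 0.1. On recovered reads it was 2 and 2, with HIST2H3C and HIST1H3J added. Counting intervals, a rule without a 2-fold limit, excluded 1 for 3 of 22 members in T24T and 10 of 18 in UMUC3. The replication-dependent share of 14.9% was 3.89% without division by length and 32.5% among members that overlap no other exon, a set without H2AFZ, H3F3B and H3F3A. The polyadenylated share of 58.3% was 50.4%, 68.3% (members at 1 RPKM), 64.8% (no overlap) and 25.6% (genes over 1000 bases in place of the list). The labels number no replicates that could be paired. With line in the fit, the plasmid term is the BCUC-1 minus vector difference averaged over the lines.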

Other observations

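Of the 15 pseudogene rows left out, H3F3AP4 stood at 64.6, 63.6, 34.6 and 25.5 RPKM (629, 617, 377 and 238 reads in the order of libraries used above), and the next, H3F3AP6, at 0.551 to 1.54 RPKM.

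RPPH1, the RNA of RNase P and one of the RNAs known to lack a tail, had 77, 57, 80 and 40 reads, lower with BCUC-1 in both lines but not past the test (limma Benjamini-Hochberg adjusted p = 0.475).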
